A study of Rattus norvegicus with 12 samples.

Results

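Txnip and its neighbours in the glucose-sensing Mondo pathway were followed in the kidney cortex of male rats with and without diabetes. The 5 genes are Txnip, Arrdc3, Arrdc4, Mlxipl and Mlx. Every probe set whose array annotation names one of them alone was taken, which gave 7 probe sets among the 31042 non-control probe sets of the array: 1 each for Txnip, Arrdc4 and Mlxipl, and 2 each for Arrdc3 and Mlx. All 7 were bright enough to be among the 18625 probe sets tested. Signals are linear intensities scaled by the authors to a common mean on each array. A signal is compared only with the same probe set on other arrays.

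The 12 arrays, each of 1 cortex RNA sample, fall into 4 groups of 3. Diabetic rats received 65 mg/kg streptozocin intravenously, which kills pancreatic beta cells, at 4 or 14 weeks of age, and an insulin palmitate pellet 3 days later. They were studied after 6 weeks, at 10 or 20 weeks of age, with blood glucose given as 350 to 450 mg/dl in the sample labels. Nondiabetic rats of the same ages received vehicle and a palmitate vehicle pellet, and all rats ate and drank freely. The design text names 350 as both ends of the glucose range. The label of the 10-week diabetic replicate 1 names a vehicle pellet with the insulin palmitate. The strain is not given in the sources used here, and it is not said whether an array stands for 1 rat or a pool, so the p-values speak only of the spread among these arrays, which may be technical. High glucose, lack of insulin, the insulin pellet and streptozocin itself changed together between the groups and cannot be told apart.

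Cells sense glucose partly through the Mondo proteins, Mlxip (MondoA) and Mlxipl (ChREBP), which take up a signal from phosphorylated sugars, pair with Mlx and bind carbohydrate response elements made of paired E boxes. Txnip is the best known target of these pairs. Its protein is an alpha-arrestin that binds and inhibits thioredoxin and promotes removal of glucose transporters from the cell surface, so its transcript is widely read as a glucose response. Arrdc4 is a close relative and a further Mondo target with a similar effect on glucose uptake, and Arrdc3 is an alpha-arrestin known for its part in the trafficking of beta-adrenergic receptors.

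Promoter sequences from RefSeq (GRCr8), covering 250 bases before to 50 after a gene's start, were at hand for 4 of the 5 genes: Arrdc3, Arrdc4, Mlxipl and Mlx. They are shown because the E box CACGTG and the CCAAT box are the elements described in the promoters of this family. Capitals mark CACGTG, which reads the same on both strands, and CCAAT on either strand (ATTGG on the printed strand), and the motifs searched do not overlap each other. The Arrdc4 stretch is chr1:131793439-131793675 on the minus strand, positions -250 to -14 from the start, and the Arrdc3 stretch is chr2:12872952-12873201 on the plus strand, positions -250 to -1. The Mlx stretch is a 30-base window around its E box, chr10:86519804-86519833 on the plus strand, with only the E box in capitals.
Arrdc4: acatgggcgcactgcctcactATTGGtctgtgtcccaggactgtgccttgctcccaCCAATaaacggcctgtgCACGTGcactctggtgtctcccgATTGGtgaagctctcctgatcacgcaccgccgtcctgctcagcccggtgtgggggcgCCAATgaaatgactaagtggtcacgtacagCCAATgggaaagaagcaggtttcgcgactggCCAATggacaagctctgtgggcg
Arrdc3: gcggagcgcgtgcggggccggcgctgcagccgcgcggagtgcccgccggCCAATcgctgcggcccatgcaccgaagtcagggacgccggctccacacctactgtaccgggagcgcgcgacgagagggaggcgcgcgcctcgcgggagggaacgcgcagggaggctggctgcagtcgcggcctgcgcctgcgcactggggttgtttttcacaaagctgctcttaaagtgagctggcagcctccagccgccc
Mlx: ggtggcttggatCACGTGactgagcctcgc
Arrdc4 held 1 CACGTG, at -177 to -172, and 6 CCAAT boxes, the first at -229 to -225 and the last at -36 to -32. Of 33469 rat promoter windows of 300 bases, 6.42% held a CACGTG, 37.5% held a CCAAT, and 0.0418% (14 windows) held 6 or more CCAAT. Mlx held a CACGTG at -70 to -65 and 3 CCAAT. Arrdc3 held no CACGTG and 1 CCAAT, at -201 to -197, and the first of the 2 windows listed for Mlxipl held no CACGTG and 2 CCAAT. Of all windows, 3.02% held 3 or more CCAAT and 11.2% held 2 or more. A spaced pair of E boxes, searched on both strands as CACGNG followed by NNNNN and CACGNG again, was in 12 windows (0.0359%) and in none of these 4 genes. Only this repeat in 1 orientation was searched. A pair with an inverted second box, other letters or other spacing may have been missed, so the search cannot show that paired E boxes are absent. A match describes letters in this window and is no measure of binding.

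The labelled tissue was matched by its markers. All 9 proximal tubule markers were tested, and their summed signal ranged from 131195 to 155571 over the 12 arrays. Of the 9, 1 fell with diabetes over both ages and 1 at 20 weeks. For the marker counts in this paragraph, the share of all probe sets called in either direction was 4.47% over both ages. It was 0.306% at 10 weeks and 2.84% at 20 weeks. The podocyte sum was 5970.2 to 6705 in nondiabetic and 4681 to 6121 in diabetic rats at 10 weeks, and 5526 to 6000.3 against 4512 to 5030.2 at 20 weeks, and 2 of 5 markers tested fell over both ages. The collecting duct sum was 8975 to 10965 against 10965 to 14191 at 10 weeks and 8739 to 9860.1 against 10034 to 11561 at 20 weeks. Of its 7 markers, all tested, 1 rose and 1 fell over both ages and 1 rose at 10 weeks. The brightest, Aqp2, had group means of 4716 against 7610.0 at 10 weeks and 4627 against 6170.2 at 20 weeks. Slc4a1 was also higher in diabetic rats at both ages, while Avpr2 and Atp6v1b1 were lower at both. Aqp3, Scnn1b and Scnn1g were higher at 10 weeks and lower at 20 weeks. The endothelial sum was 8257 to 9679 against 7648 to 8623 at 10 weeks and 8564 to 9702 against 7241 to 7917 at 20 weeks. Of 5 endothelial markers tested, 1 fell over both ages and at 20 weeks. Vwf had group means of 828 against 294 at 10 weeks and 762 against 164 at 20 weeks. Kdr and Emcn were also lower in diabetic rats at both ages. Pecam1 and Tek were higher at 10 weeks and lower at 20 weeks. The sum of the thick ascending limb and distal tubule lay between 31789 and 41303 on all arrays, with none of 5 tested markers called. The leukocyte sum was 14135 to 16749 against 15823 to 20496 at 10 weeks, and 11698 to 21142 against 16521 to 23607 at 20 weeks. Of 5 leukocyte markers tested 1 was higher over both ages, and Cd3e and Itgam were too dim to test. The adipocyte sum was 265 to 934 against 732 to 1609 at 10 weeks, and 604 to 813 against 1075 to 1961 at 20 weeks. None of its 3 tested markers was called, and Lep, Cfd and Plin1 were too dim to test. Cidec had group means of 262 against 577 at 10 weeks and 373 against 734 at 20 weeks. Fabp4 had 56 against 257 and 88.4 against 415, and Adipoq 174 against 185 and 151 against 202. Among the dim ones, Cfd was higher in diabetic rats at both ages, and Lep and Plin1 each went opposite ways at 10 and 20 weeks. The hepatocyte markers Alb, Apoa1, Ttr and Serpina1 were also too dim. Apoc3, the 1 hepatocyte marker tested, was not called and had group means of 2588 to 3068, so the list sum of 2200.1 to 3461 is mostly its signal. The 3'/5' signal ratio of Gapdh, a sign of RNA quality, was 1.41 to 1.46 and 1.44 to 1.5 in nondiabetic and diabetic rats at 10 weeks. At 20 weeks it was 1.42 to 2.09 and 1.6 to 1.75, with the highest value on the nondiabetic replicate 1. The same ratio of beta-actin was higher, at 6.75 to 7.47 and 6.3 to 8.57 at 10 weeks. At 20 weeks it was 6.87 to 11.2 in nondiabetic and 7.46 to 11.4 in diabetic rats. The actin ratio was not used as a covariate. With the Gapdh ratio as a covariate the log2 difference of Txnip over both ages was 0.70 ± 0.11 (SE). Those of Arrdc3 were 0.79 ± 0.09 and 1.01 ± 0.14, close to those without it given below. The part of the marker shifts in the results was not tested. In pieces of cortex, fewer cells of a type and less RNA per cell cannot be told apart.

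Txnip was higher in the diabetic cortex. In nondiabetic rats at 10 weeks its signals were 5932, 4986 and 4100.2, and in diabetic rats of that age 7238, 8975 and 5775. At 20 weeks they were 6151, 4642 and 5069 in nondiabetic and 10129.6, 9299 and 9893 in diabetic rats. The 10-week groups overlapped, since the lowest diabetic array lay below the highest nondiabetic one, while at 20 weeks every diabetic array lay above every nondiabetic array. The 3 diabetic arrays at 20 weeks were also the closest together, with a coefficient of variation of 4.38% against 21.9% in diabetic rats at 10 weeks. Each of the 6 diabetic arrays lay above the nondiabetic mean of its age.

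**Figure D1:**
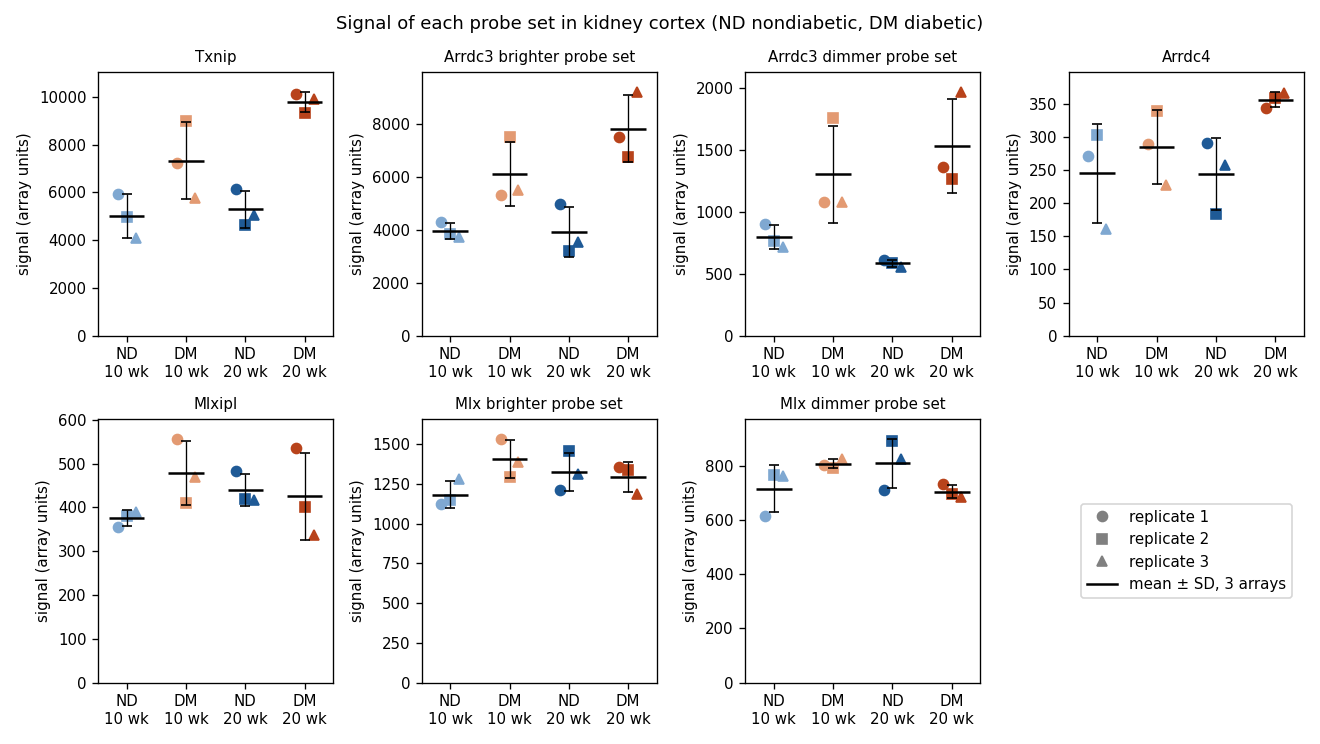
Signal of each of the 7 probe sets (linear intensity, axis from 0) on the 12 arrays, by group (ND nondiabetic, DM diabetic). Points are arrays, bars with caps are the mean ± SD of 3 arrays; the diabetic 20-week arrays of Txnip sit between 9299 and 10129.6, above all other arrays, and the group means of the brighter Mlx probe set lie between 1184 and 1408.

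Over both ages the log2 difference of Txnip between diabetic and nondiabetic rats was 0.72 ± 0.11 (SE; 95% interval 0.47 to 0.97), a fold of 1.65 (limma, adjusted p = 0.00374 over all probe sets). An exact permutation of the diabetes labels within each age, two-sided, gave p = 0.01, where the smallest it can give is 0.005. At 20 weeks the log2 difference was 0.90 ± 0.16 (0.54 to 1.25), a fold of 1.86 (limma, adjusted p = 0.0135). At 10 weeks it was 0.54 ± 0.16 (0.19 to 0.89), a fold of 1.46 that missed the threshold (limma, adjusted p = 0.228). The 20-week call was lost without nondiabetic replicate 2 (0.81, limma, adjusted p = 0.0557), without diabetic replicate 3 (0.89, adjusted p = 0.0523) and with no intensity trend in the variance (0.90, adjusted p = 0.0531). The call over both ages held in all 23 limma refits, with log2 differences of 0.64 to 0.80.

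Arrdc3 rose with diabetes on both of its probe sets, which are told apart here as the brighter and the dimmer one. The brighter one read 4313, 3852 and 3755 in nondiabetic and 5337, 7509 and 5501 in diabetic rats at 10 weeks. At 20 weeks it read 5002, 3211 and 3553 against 7541, 6752 and 9234. The diabetic arrays were all above the nondiabetic arrays at both ages. Replicate 2 was the highest diabetic array at 10 weeks and replicate 3 at 20 weeks. The dimmer probe set gave 903, 762 and 720.2 in nondiabetic against 1076, 1755 and 1081 in diabetic rats at 10 weeks. It gave 614, 589.7 and 556 against 1362, 1268 and 1969 at 20 weeks. Again no groups overlapped at either age, and the same replicates were highest among the diabetic arrays.

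Over both ages the log2 difference was 0.81 ± 0.12 (SE; 0.55 to 1.07; 1.75-fold) on the brighter probe set (limma, adjusted p = 0.00263) and 1.02 ± 0.14 (0.72 to 1.32; 2.03-fold) on the dimmer (limma, adjusted p = 0.00155). The exact permutation within age gave 0.005, its smallest p, for both. At 20 weeks the differences were 1.01 ± 0.17 (2.02-fold; limma, adjusted p = 0.00924) and 1.36 ± 0.20 (2.57-fold; limma, adjusted p = 0.00408). At 10 weeks they were 0.61 ± 0.17 and 0.68 ± 0.20, with limma adjusted p of 0.213 and 0.22. Both calls over both ages held in all 23 limma refits, and both at 20 weeks in all 24.

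Arrdc4, the other close relative of Txnip and a Mondo target, was not called. Its signals at 10 weeks were 270.4, 303 and 160.3 in nondiabetic and 289, 339 and 227 in diabetic rats, which overlapped. At 20 weeks they were 291, 184 and 257 against 343, 358 and 366, with every diabetic array above every nondiabetic array. The diabetic 20-week arrays were again tightly grouped, with a coefficient of variation of 3.26% against 22.4% in nondiabetic rats. The log2 difference over both ages was 0.41 ± 0.17 (SE; 0.03 to 0.79), a fold of 1.33 (limma, p = 0.035, adjusted p = 0.236; exact permutation p = 0.06). With 1 array left out it ran from 0.27, without the 10-week nondiabetic replicate 3, to 0.50. At 20 weeks it was 0.57 ± 0.25 (0.04 to 1.10; limma, adjusted p = 0.265) and at 10 weeks 0.25 ± 0.25 (-0.28 to 0.79; limma, adjusted p = 0.755), which became -0.03 without the nondiabetic replicate 3. Of the 6 diabetic arrays, 5 lay above the nondiabetic mean of their age. The interval allows a rise as large as that of Txnip.

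Neither transcription factor of the pathway was called. Mlxipl encodes ChREBP, known as the main glucose-responsive factor of liver. It read 356, 381 and 389.9 in nondiabetic and 557, 410.1 and 469.6 in diabetic rats at 10 weeks, with no overlap, and 483, 419 and 418 against 535, 401 and 338 at 20 weeks, where the diabetic arrays spread to both sides of the nondiabetic ones. The log2 difference was 0.34 ± 0.17 (SE; -0.03 to 0.71; limma, adjusted p = 0.506) at 10 weeks and -0.07 ± 0.17 (-0.44 to 0.29; adjusted p = 0.873) at 20 weeks. Over both ages it was 0.13 ± 0.12 (-0.13 to 0.39; limma, adjusted p = 0.625).

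Mlx, the partner both Mondo proteins need for binding DNA, also has a brighter and a dimmer probe set. On the brighter one the nondiabetic arrays read 1122, 1148 and 1281 and the diabetic arrays 1536, 1297 and 1391 at 10 weeks. At 20 weeks they read 1215, 1456 and 1315 against 1357, 1338 and 1188. The 10-week groups did not overlap and the 20-week groups did. The dimmer one gave 615, 768 and 763 against 804, 794 and 827 at 10 weeks, and 710.0, 890.1 and 827 against 732, 698 and 686 at 20 weeks. The 10-week diabetic arrays were thus above all nondiabetic arrays of that age on both probe sets, by small amounts. Over both ages the log2 differences were 0.11 ± 0.07 (SE; -0.05 to 0.26; limma, adjusted p = 0.49) and -0.00 ± 0.08 (-0.18 to 0.17; limma, adjusted p = 0.99). At 10 weeks they were 0.25 ± 0.10 (limma, adjusted p = 0.392) and 0.18 ± 0.11 (adjusted p = 0.601). At 20 weeks they were -0.04 ± 0.10 and -0.19 ± 0.11 (limma, adjusted p of 0.901 and 0.438).

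**Figure D2:**
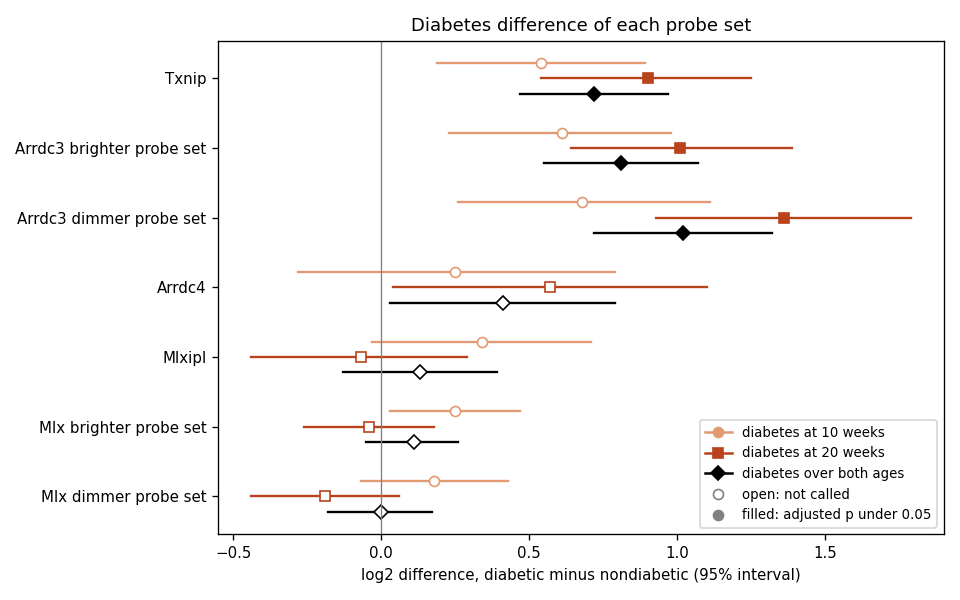
Log2 difference between diabetic and nondiabetic rats (diabetic minus nondiabetic) for each probe set over both ages, at 10 weeks and at 20 weeks, with 95% intervals from limma. Filled markers passed an adjusted p of 0.05: Txnip and both Arrdc3 probe sets over both ages and at 20 weeks, and none at 10 weeks.

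Counted together, 3 of the 7 probe sets were called over both ages, all higher, against 4.47% of all probe sets called in either direction and 2.14% called higher. At 20 weeks 3 of 7 were called, again all higher, against 2.84% of all in either direction and 1.22% higher. At 10 weeks 0 of 7 were called by limma, against 0.306% of all, while 4 of 7 had an unadjusted p under 0.05, against 10.9% of all. The 3 calls come from 2 genes, since both Arrdc3 probe sets measure the same gene. In 5 of 7 probe sets all diabetic arrays lay above all nondiabetic arrays at 10 weeks, against 7.47% of all probe sets, and in 4 of 7 at 20 weeks, against 10.1%. The probe sets that did so at 10 weeks were those of Arrdc3, Mlxipl and Mlx, and those at 20 weeks were those of Txnip, Arrdc3 and Arrdc4. Both counts, and that of unadjusted p under 0.05 at 10 weeks, hold both Arrdc3 probe sets. The 10-week count without overlap holds both Mlx probe sets too, so these are not counts of separate genes. The median log2 difference of the 7 was 0.41 over both ages, 0.34 at 10 weeks and 0.57 at 20 weeks, against -0.01, -0.02 and -0.00 over all probe sets tested.

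Whether the response differed between the ages was tested as the difference at 10 weeks minus that at 20 weeks. No probe set of the 7 passed, and 0% of all probe sets passed by limma, where 2 of 7 and 7.95% of all had an unadjusted p under 0.05. For Txnip, Arrdc3 and Arrdc4 the estimates were below 0, none past the threshold: the interaction was -0.35 ± 0.23 (SE; -0.85 to 0.14) for Txnip, -0.41 ± 0.24 (-0.93 to 0.12) and -0.68 ± 0.28 (-1.28 to -0.08) for Arrdc3, and -0.32 ± 0.35 (-1.07 to 0.44) for Arrdc4. For Mlxipl and Mlx the estimates were above 0, with 0.41 ± 0.24 (-0.10 to 0.93) for Mlxipl and 0.29 ± 0.14 (-0.03 to 0.60) and 0.38 ± 0.16 (0.02 to 0.73) for Mlx. The limma adjusted p of the 7 lay between 0.575, for the dimmer Arrdc3 probe set, and 0.842, for Arrdc4. With 1 array left out no sign turned among the 7. The interaction ran from -0.51 to -0.19 (without the 10-week diabetic replicate 3) for Txnip. For Arrdc4 it ran from -0.59, without the 10-week nondiabetic replicate 3, to -0.13, without the 20-week nondiabetic replicate 2. For Mlxipl it ran from 0.26, without the 20-week diabetic replicate 3, to 0.59.

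Age by itself moved no probe set of the 7 past the threshold. Between nondiabetic rats of 20 and 10 weeks 0 of 7 were called by limma, as were 0% of all, and 1 of 7 had an unadjusted p under 0.05, against 8.61% of all. That probe set was the dimmer one of Arrdc3, at -0.43 ± 0.20 (SE; limma, adjusted p = 0.577), where the brighter one was at -0.04 ± 0.17. All 20-week arrays of the dimmer one lay below the 10-week ones, 1 of 7 against 5.7% of all probe sets, and Mlxipl (0.23 ± 0.17) was the 1 of 7 with all arrays higher, against 6.36%. Txnip was at 0.09 ± 0.16 (-0.27 to 0.44) in nondiabetic rats. Between diabetic rats of 20 and 10 weeks 0 of 7 were called by limma, against 0.66% of all, and 1 of 7 had an unadjusted p under 0.05, against 13.6%. That was Txnip, at 0.44 ± 0.16 (0.09 to 0.79; limma, adjusted p = 0.258), with every 20-week diabetic array above every 10-week diabetic array. Arrdc4 also had no overlap there, at 0.34 ± 0.25 (limma, adjusted p = 0.583), so 2 of 7 lay higher on all arrays, against 11.6% of all probe sets. The dimmer Mlx probe set lay lower on all arrays (-0.20 ± 0.11), 1 of 7 against 9.9%. The Gapdh 3'/5' ratio did not overlap between the diabetic groups (1.44 to 1.5 at 10 weeks, 1.6 to 1.75 at 20 weeks). Over the 24 alternatives this age difference ran from 0.28 to 0.60 for Txnip and from 0.11 to 0.47 for Arrdc4. For the brighter Arrdc3 probe set it ran from 0.11 to 0.52. These comparisons share arrays with the diabetes comparisons, so their values are not independent of those above.

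For Txnip the group means ran from 5006 ± 916 (SD, n = 3) in nondiabetic rats at 10 weeks through 5287 ± 778 in nondiabetic rats at 20 weeks and 7329.6 ± 1602 in diabetic rats at 10 weeks to 9774 ± 428 in diabetic rats at 20 weeks. The 2 nondiabetic groups differed by less than their SDs, and nondiabetic 20-week and diabetic 10-week arrays overlapped. Arrdc3 had the same order of diabetic groups, with means of 6116 ± 1209 at 10 and 7843 ± 1268 at 20 weeks on the brighter probe set. On that probe set the nondiabetic means of 3973 ± 298 and 3922 ± 951 lay within their SDs. On the dimmer one they were 795 ± 96 at 10 weeks and 586 ± 29.3 at 20 weeks, without overlap. The group means of Arrdc4 were 245 ± 74.8 in nondiabetic and 285 ± 55.8 in diabetic rats at 10 weeks. At 20 weeks they were 244 ± 54.7 and 356 ± 11.6.

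Across the 12 arrays the log2 signal of Txnip was compared with that of 10489 named genes, as a description, since the arrays share the diabetes difference between the groups. Arrdc3 was 7th of these genes by its brighter probe set, with a Pearson correlation of 0.943 over the 12 arrays and of 0.75 for the deviations from the group means. Arrdc4 was at place 62 with 0.859, and with 0.82 within groups. The correlation with Mlxipl was 0.146 and with the brighter Mlx probe set 0.051. Within groups it was -0.08 and -0.63, and the brighter Arrdc3 and brighter Mlx probe sets had -0.86 within groups. With Txnip, the dimmer Mlx probe set had -0.384 over the 12 arrays and -0.70 within groups. The dimmer Arrdc3 probe set had 0.862 and 0.65.

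**Figure D3:**
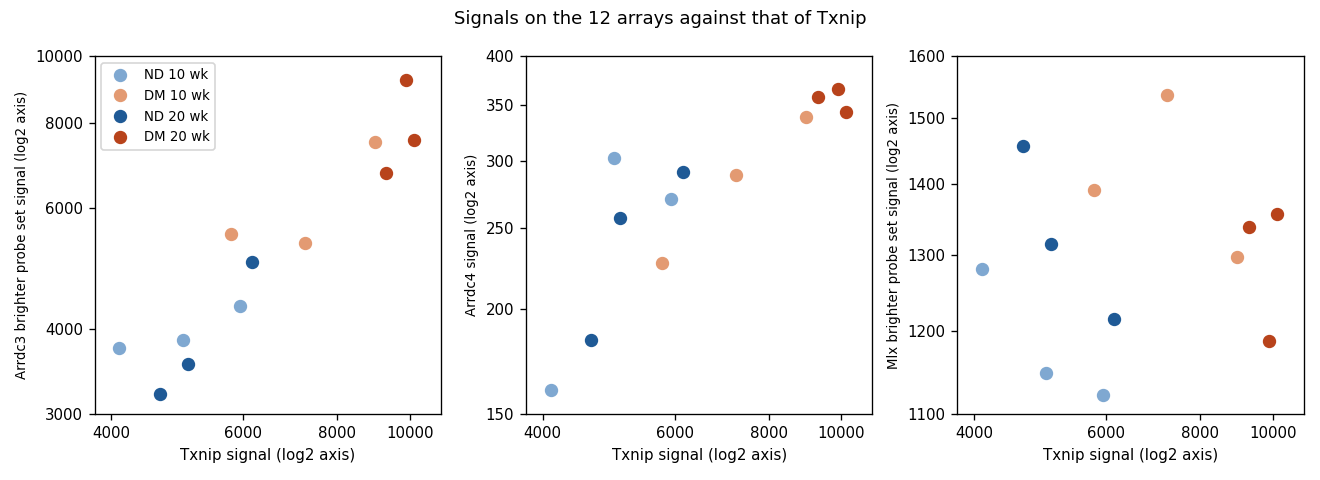
Signal of Arrdc3 (brighter probe set), Arrdc4 and Mlx (brighter probe set) against that of Txnip, both axes on a log2 scale, 1 point for each of the 12 arrays, coloured by group. Arrdc3 and Arrdc4 rise with Txnip across the arrays (r = 0.943 and 0.859). The brighter Mlx probe set shows no such slope over all arrays (r = 0.051), and within groups its correlation was -0.63.

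The other genes of likest pattern were Cpt2 (0.964), which imports fatty acids into mitochondria, Cnn3 (0.961), an actin-binding calponin, Cyp4a1 (0.958), a fatty acid hydroxylase, Amt (0.950), of the glycine cleavage system, Adtrp (0.949), Plin2 (0.949), which coats lipid droplets, and Tmem69 (0.938). Within groups their correlations with Txnip ran from 0.64 for Tmem69 to 0.91 for Amt. Their log2 differences over both ages, given as a description since a gene that follows Txnip on these arrays follows the groups too, were 0.56 ± 0.10 (SE) for Cpt2, 0.30 ± 0.05 for Cnn3, 0.85 ± 0.14 for Cyp4a1, 0.68 ± 0.09 for Amt, 0.81 ± 0.12 for Adtrp, 0.53 ± 0.07 for Plin2 and 0.20 ± 0.05 for Tmem69.

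The pathway around Txnip was read from 6 lists of genes, with 1 probe set (the brightest) per gene. Of 10 tested partners in the Mondo and Mlx network, 1 rose over both ages and 0 fell, against 2.14% of all probe sets called higher and 4.47% in either direction. The list median was -0.04 against -0.01 over all probe sets. The gene that rose was Myc, a transcription factor of cell growth that pairs with Max. Its signals were 115, 173 and 119 in nondiabetic and 128, 137 and 169 in diabetic rats at 10 weeks, and 168, 127 and 106 against 294, 342 and 432 at 20 weeks. The diabetic 20-week arrays were thus above all others, and the 10-week groups overlapped. Its log2 difference was 0.76 ± 0.17 over both ages (limma, adjusted p = 0.0254) and 1.42 ± 0.24 at 20 weeks (limma, adjusted p = 0.00945). At 10 weeks it was 0.11 ± 0.24 (limma, adjusted p = 0.912). The difference at 10 weeks minus that at 20 weeks was -1.31 ± 0.34 (limma, adjusted p = 0.422). The call over both ages was lost when any of 6 arrays was left out: nondiabetic replicate 1 and diabetic replicate 3 at 10 weeks, and nondiabetic replicates 2 and 3 and diabetic replicates 2 and 3 at 20 weeks (adjusted p up to 0.0684). That at 20 weeks was lost without diabetic replicate 3 (1.27, adjusted p = 0.052).

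Mlxip, the MondoA gene and the other partner of Mlx, did not pass on either of its 2 probe sets. It is given here, with Arrdc1 and Arrdc2, as a member of the same families, chosen after its values were seen. Its brighter probe set read 306, 320.5 and 346 against 238, 349 and 458 at 10 weeks, and 383, 311 and 521 against 289, 405 and 428 at 20 weeks, so the groups overlapped at both ages. The log2 differences over both ages were -0.02 ± 0.17 (SE; -0.40 to 0.35) and -0.05 ± 0.17 (-0.42 to 0.32; limma, adjusted p of 0.967 and 0.924).

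Of 6 tested genes among the other alpha-arrestins and their ubiquitin ligase partners, 0 were called by limma, and 0 had an unadjusted p under 0.05 over both ages, against 17.9% of all probe sets. The list median was 0.06. Arrdc1 was at 0.02 ± 0.10 (SE; -0.20 to 0.24) and Arrdc2 at -0.11 ± 0.17 (-0.49 to 0.27). The ligases Nedd4l and Wwp1 were at -0.02 ± 0.07 and 0.10 ± 0.16. Nedd4 was at 0.22 ± 0.24 on its brightest probe set, and its other 4 probe sets lay between -0.13 and 0.03. By age that brightest probe set was at -0.39 ± 0.33 at 10 weeks and 0.82 ± 0.33 at 20 weeks (limma, adjusted p = 0.236). At 20 weeks its diabetic arrays were all above the nondiabetic ones, as for 10.1% of all probe sets. The other 4 lay between -0.11 and 0.45 at that age.

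In the thioredoxin system, whose central protein Txnip inhibits, 1 of 13 tested genes rose and 0 fell over both ages, against 2.14% of all probe sets called higher, with a list median of 0.11 against -0.01 over all. The gene was Glrx, a glutaredoxin that reduces proteins with glutathione. It read 430.5, 379 and 306 against 487, 824 and 490.0 at 10 weeks, and 490.0, 193 and 252 against 664, 848 and 884 at 20 weeks, with no overlap at either age. Its log2 difference was 1.06 ± 0.21 over both ages (limma, adjusted p = 0.0147), and 0.68 ± 0.16 on its other probe set (limma, adjusted p = 0.0277). Txn1, the cytosolic thioredoxin, was at 0.11, mitochondrial Txn2 at -0.00 and the reductase Txnrd1 at -0.00, none of them called. These 3 were picked for their role after their values were seen.

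The list of targets of carbohydrate response factors went both ways. Of 18 tested genes 3 rose and 3 fell over both ages, against 4.47% of all probe sets called in either direction, and 12 were not called. The list median was -0.09 against -0.01 over all. Those that rose were Slc2a2 (GLUT2), which lets glucose leave tubule cells towards the blood, Tm6sf2, which acts in lipid export, and Gpd1, glycerol-3-phosphate dehydrogenase. Slc2a2 read 5138, 4801 and 4204 against 6606, 9298 and 6431 at 10 weeks, and 5325, 3742 and 4019 against 6759, 7083 and 8826 at 20 weeks, with no overlap at either age. Its log2 difference over both ages was 0.72 ± 0.12 (SE; limma, adjusted p = 0.00384), that of Tm6sf2 was 0.75 ± 0.12 (adjusted p = 0.00374) and that of Gpd1 was 0.39 ± 0.07 (adjusted p = 0.00504). The second Gpd1 probe set was at 0.31 ± 0.20 (limma, adjusted p = 0.483).

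Those that fell were Bhlhe40, a clock-linked repressor, and the lipogenic enzymes Acly and Fasn, which make cytosolic acetyl-CoA and fatty acids. Bhlhe40 read 702, 728 and 801 against 606, 499 and 609 at 10 weeks, and 919, 831 and 928 against 391, 319.7 and 381 at 20 weeks. Every diabetic array was below every nondiabetic array of its age. Its log2 difference was -0.84 ± 0.09 (SE) over both ages (limma, adjusted p = 0.000242) and -1.30 ± 0.12 at 20 weeks (limma, adjusted p = 0.000298). Acly was at -0.48 ± 0.07 over both ages (limma, adjusted p = 0.0017) and Fasn at -0.45 ± 0.09 (adjusted p = 0.0101), with -0.54 ± 0.14 on its second probe set (adjusted p = 0.0498). The Fasn call over both ages was lost without both doubted arrays, the 10-week diabetic and 20-week nondiabetic replicate 1 (-0.42, limma, adjusted p = 0.0541). Pklr, pyruvate kinase of liver and kidney and a classical ChREBP target picked after its values were seen, was at -0.15 and not called.

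**Figure D4:**
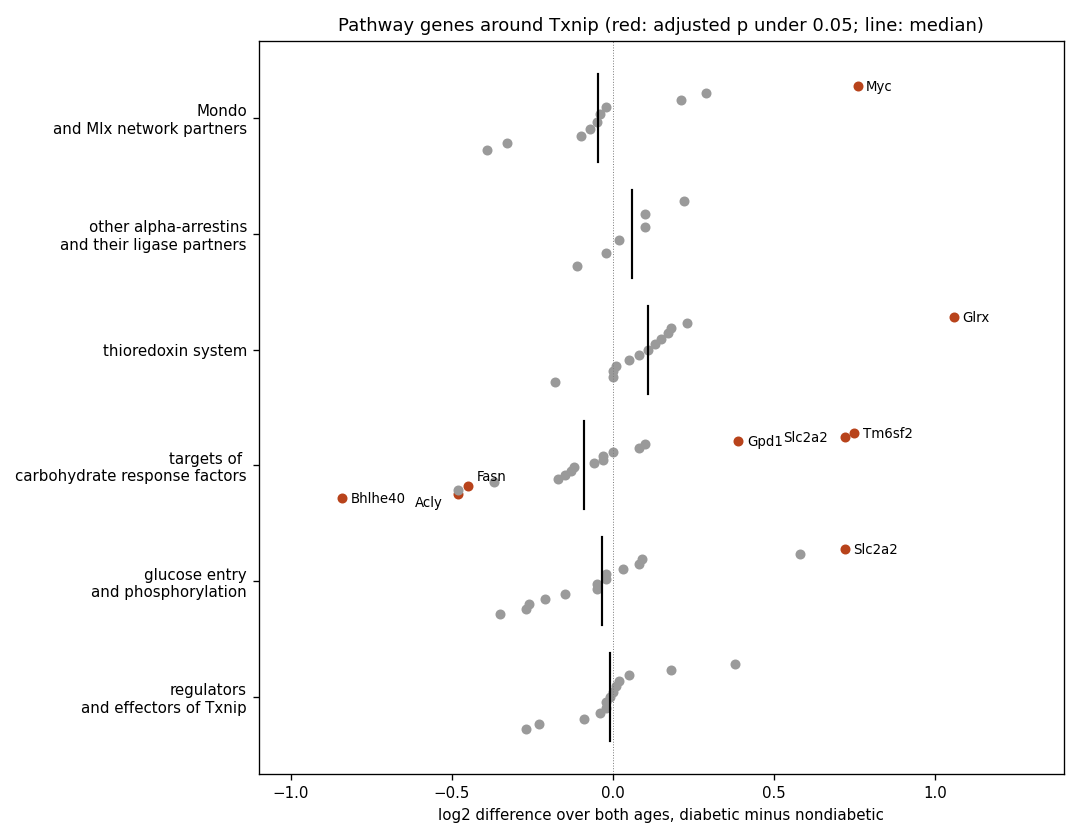
Log2 difference over both ages (diabetic minus nondiabetic) of each tested gene in 6 lists around Txnip, 1 point a gene, with the list median as a vertical line. Red points passed an adjusted p of 0.05; the list of targets of carbohydrate response factors has 3 red points on each side of 0, and the 5 other lists have at most 1.

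At 20 weeks, 2 of these 18 targets rose and 3 fell, against 2.84% of all probe sets called in either direction. At 10 weeks 0 were called by limma, against 0.306% of all, and 6 of 18 had an unadjusted p under 0.05, against 10.9% of all. The 20-week calls of Acly (-0.58 ± 0.09; limma, adjusted p = 0.00718) and Bhlhe40 held in all 24 alternatives. Those of Slc2a2 (0.80 ± 0.16, adjusted p = 0.0237), Tm6sf2 (0.79 ± 0.17, adjusted p = 0.0277) and Fasn (-0.59 ± 0.12, adjusted p = 0.0232) were each lost without nondiabetic replicate 2, diabetic replicate 2 or diabetic replicate 3, as was that of Glrx (1.46 ± 0.30, limma, adjusted p = 0.0246). All 4 were also lost with no intensity trend. Without both doubted arrays Fasn and Tm6sf2 were lost (limma, adjusted p of 0.0907 and 0.0506). With the 20-week groups fitted alone Glrx and Fasn were lost (limma, adjusted p of 0.0565 and 0.0684). The second probe sets of Glrx (0.83 ± 0.22, adjusted p = 0.0676) and Fasn (-0.57 ± 0.20, adjusted p = 0.171) did not pass at 20 weeks by limma. Without nondiabetic replicate 3 the calls of Slc2a2 and Glrx were lost, without nondiabetic replicate 1 that of Fasn, and without diabetic replicate 1 that of Tm6sf2. For the calls lost with 1 array left out the limma adjusted p lay between 0.0618 and 0.105, and no direction turned. Too dim to test were Acacb, Scd, Thrsp, Fgf21, Gckr, Ppp1r3b, Angptl8, Mttp and Cyp8b1.

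Of 14 tested genes of glucose entry and phosphorylation 1 rose over both ages, Slc2a2, which stands in both lists, and 0 fell, against 4.47% of all called in either direction, with a list median of -0.03. Of 13 tested regulators and effectors of Txnip 0 were called by limma in any of the comparisons, with 4 at an unadjusted p under 0.05 over both ages, against 17.9% of all probe sets, and a list median of -0.01, the same as over all. The 3 brightest were Hif1a (0.01 ± 0.05), the hypoxia factor, Xbp1 (-0.27 ± 0.08), of the unfolded protein response, and Cdkn1b (0.18 ± 0.07), a cell cycle inhibitor that Txnip is known to stabilise. Between diabetic rats of 20 and 10 weeks Myc (1.29 ± 0.24) and Bhlhe40 (-0.65 ± 0.12) were the called genes of the 6 lists (limma, adjusted p = 0.038 for each). Both were lost when any diabetic array was left out, except Bhlhe40 without the 10-week diabetic replicate 2, and when the nondiabetic 10-week replicate 2 was left out (adjusted p from 0.0505 to 0.154). The Gapdh 3'/5' ratio did not overlap between these groups (1.44 to 1.5 at 10 weeks, 1.6 to 1.75 at 20 weeks), and with it as a covariate both calls were lost (Myc 1.06, limma, adjusted p = 0.175; Bhlhe40 -0.67, adjusted p = 0.159). Both were also lost without both doubted arrays (adjusted p of 0.109 and 0.145) and with no intensity trend (0.0715 and 0.0802). Myc was further lost with the replicate number as a block (0.0708), with quantile normalization (0.0518) and with no filter on dim probe sets (0.0568), and Bhlhe40 when these 2 groups were fitted alone (0.0795).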

How the data were processed

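Cortex RNA was hybridised as biotin-labelled cRNA, 1 colour per array, per the labels' protocols. The deposited values are linear intensity signals made with GCOS, per the submitters' processing notes. Its version is not given in the sources used here. The mean signal after trimming 2% at each end was 500.2 on every array, so the authors had scaled them; differences are relative to other transcripts. Arrays correlated at 0.907 to 0.928 and none were identical.

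Of 31099 probe sets, 57 controls were left out, 424 signals below 1 were set to 1, log2 was taken, and the dimmest 40% (geometric mean signal under 70.9) were left out. Tests used limma 3.58.1 in R 4.3.3: 4 group means, 8 residual degrees of freedom, eBayes with an intensity trend, two-sided, with calls at an adjusted p (Benjamini-Hochberg) under 0.05. The code was tested on simulated data. Named genes were all 5 genes, each list's called genes or else its 3 brightest, and the 8 genes most correlated with Txnip. The genes and lists were chosen with earlier results of these data known. Alternatives changed the scaling, filter, offset, variance model, covariate, block and arrays. The number of arrays limits the precision. Gene names came from the array annotation, updated through the RefSeq gene table.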

Additional observations from a re-analysis of the deposited data

How the results depend on the processing

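Of 1001 recomputed log2 differences of the 7 probe sets (7 of them judged by the unadjusted exact permutation p), 972 kept their direction and their side of the threshold. In 3, all Txnip at 20 weeks, the call was lost, and with 1 array left out that difference ran from 0.81 to 1.01. In 26 the sign turned, each time for a difference that was not called in either setting. The dimmer Mlx probe set over both ages was at 0.00 with quantile normalization, 0.03 with median scaling and 0.01 with the Gapdh ratio as a covariate, and between -0.06 and 0.03 with 1 array left out. With 1 array left out, Arrdc4 at 10 weeks ran from -0.03 to 0.43, Mlxipl at 20 weeks from -0.25 to 0.08 and the brighter Mlx probe set at 20 weeks from -0.10 to 0.03. For age in nondiabetic rats, Txnip ran from -0.05 to 0.22, the brighter Arrdc3 probe set from -0.23 to 0.09 and Arrdc4 from -0.26 to 0.21. In that comparison Txnip was at -0.08 with the Gapdh ratio as a covariate and -0.03 without both doubted arrays, and Arrdc4 at -0.22 and -0.12, and at -0.01 with array weights. Txnip over both ages kept its call in all 23 limma refits (adjusted p from 0.00197 to 0.019). Leaving out both doubted arrays gave 0.78 ± 0.13 (SE) for Txnip, and 0.95 ± 0.11 and 1.10 ± 0.16 for Arrdc3. Scaling each array to the same median moved the median of all probe sets from -0.00 to 0.14 in the interaction, from -0.02 to 0.09 for diabetes at 10 weeks and from 0.02 to -0.10 for age in diabetic rats. Of 397 recomputed calls of list genes, 55 were lost and 0 turned; where no value shows the cause, it was not tested.

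The replicate numbers were not used as pairs in the main fit. Between groups, deviations of same-numbered arrays correlated at -0.151 to 0.149, and those of differently numbered arrays at -0.195 to 0.247. With so few arrays these correlations cannot show whether the samples were paired. With the replicate number as a block, 3 of 7 probe sets were called over both ages, 0 at 10 weeks and 3 at 20 weeks, and Txnip over both ages was at 0.72 ± 0.10 (SE; limma, adjusted p = 0.00397).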
